A study of Mus musculus with 95 samples.

Results

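The adenylyl cyclase, phosphodiesterase and RGS genes are the enzymes that make and break down cyclic nucleotides and the regulators that switch off G proteins. They were taken as every gene of the deposited count table named Adcy with a number, Pde with a number and a letter, or Rgs with a number. Adcy5, Pde1b, Pde10a, Rgs5, Rgs9 and Rgs12 were left out by the rule, and Pde2a was not analysed here. This gave 48 of 39179 genes, made up of 9 Adcy, 21 Pde and 18 Rgs genes. Of these, 43 had enough counts to be tested within each age and 44 when both ages were fitted together. Pde6a, Rgs1, Rgs18 and Rgs21 were too low for any test, and Pde6c for the tests within an age.

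The libraries hold messenger RNA of the cerebral cortex of C57BL/6 mice. Knock-in mice carried 1 huntingtin allele with a CAG stretch of 20, 50, 92 or 140 repeats (Het Q20, Q50, Q92 and Q140), the change that causes Huntington's disease when the stretch is long. Wild-type mice had been caged with Q20 or with Q50 mice, whereas Q92 and Q140 mice had been caged with their own line. Females and males were taken at ages of 6 and 10 months, with 8 libraries for each line and age, except for the 7 of Q140 at 10 months. The reference for Q20 and for Q50 was the wild-type group of the same cages, and that for Q92 and Q140 was both wild-type groups together. The labels do not state that each library is a separate animal, so a p-value reflects the spread among libraries, which may be technical.

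Adenylyl cyclases turn ATP into cyclic AMP when the stimulatory G proteins Gs or Golf are active, and some also answer to calcium. Phosphodiesterases hydrolyse cyclic AMP, cyclic GMP or both, and so set how long and how far the signal spreads. RGS proteins speed up GTP hydrolysis by G protein alpha subunits and thereby shorten signals from receptors. Members of the 3 families differ in which brain regions use them, and several are abundant in the striatum, which lies directly under the cortex.

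The depth of a library was 30.3 M to 41.1 M estimated counts (median 34.1 M). Mitochondrial genes took 14.7% of the counts of female Q50 library 4 and 13.6% of those of male Q92 library 3, both of 6 months, against 9.08% to 12.58% in the others. All 11 markers of cortical projection neurons were present in each group, with a summed level between 4310 and 5600 CPM (counts scaled to the library depth) over all libraries. Their mean log2 CPM was 6.82 to 6.95 in Q92 at 6 months against 6.55 to 6.73 and 6.51 to 6.85 in the wild types of the Q20 and Q50 cages, and 5 of the 11 were called higher there. All 16 markers of striatal projection neurons were also present, and their level differed between groups. At 6 months their summed level was 651 to 1020 CPM in the wild types of the Q20 cages and 469 to 653 CPM in those of the Q50 cages. It was 538 to 1110 CPM in Q20, 355 to 647 CPM in Q50, 355 to 413 CPM in Q92 and 313 to 466 CPM in Q140 libraries. At 10 months it was lowest in the wild types of the Q20 cages, at 340 to 464 CPM, against 403 to 1080 CPM in those of the Q50 cages. In the knock-in lines of that age it was 349 to 1360 CPM in Q20, 564 to 843 CPM in Q50, 340 to 611 CPM in Q92 and 335 to 639 CPM in Q140 libraries. Of the 7 markers of forebrain cholinergic neurons 6 were in the table, and their sum was 1.27 to 2.82 CPM in Q92 at 6 months against 7.11 to 29.5 CPM in the wild types. At that age it was 1.42 to 3.63 CPM in Q140, 1.72 to 16.9 CPM in Q50 and 3.06 to 29.3 CPM in Q20. At 10 months it was 1.13 to 2.59 CPM in the wild types of the Q20 cages and 2.56 to 28 CPM in those of the Q50 cages. In Q20 of 10 months it was 1.86 to 31.9 CPM. Olfactory bulb markers (4 of 4 in the table) summed to 5.75 to 10.7 CPM in Q92 at 6 months against 10.1 to 97.7 CPM in the wild types, and all 4 were called lower there. Choroid plexus markers (8 of 8) reached from 15.1 to 2660 CPM in Q140 at 6 months and from 18.3 to 1110 CPM in the wild types. Of these 8, 3 were called higher in Q92 and 4 in Q140 at 6 months. The part of the cholinergic, olfactory bulb and choroid plexus lists in the results was not tested. For the called members, values with the striatal marker level as a covariate are given with the results. In bulk tissue, fewer cells of a type and less RNA per cell cannot be told apart.

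Levels between genes were compared per length, in FPKM (fragments scaled to gene length and depth) as deposited, over all 95 libraries. Rgs4, a regulator of Gi and Gq signalling that is abundant in cortical neurons, was the highest of all members at 129 ± 11.3 FPKM (SD). Among the cyclases Adcy1, which calcium and calmodulin stimulate, led with 94.2 ± 12 FPKM, ahead of Adcy2 at 38.3 ± 1.72 FPKM and Adcy9 at 12.6 ± 1.60 FPKM. Adcy9 and Adcy3, at 12.4 ± 0.882 FPKM, did not differ beyond their spread. The soluble, bicarbonate-sensing cyclase Adcy10 was the lowest cyclase at 0.098 ± 0.038 FPKM, below Adcy4 at 1.08 ± 0.169 FPKM and Adcy7 at 1.64 ± 0.192 FPKM.

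Among the phosphodiesterases the calmodulin-stimulated Pde1a was highest, at 46.5 ± 4.29 FPKM. The cyclic AMP specific Pde8b and Pde4b followed at 34.4 ± 1.59 FPKM and 32.8 ± 2.21 FPKM, within each other's spread. The photoreceptor genes Pde6h, Pde6c and Pde6a were lowest, at 0.073 ± 0.0302 FPKM, 0.0584 ± 0.0245 FPKM and 0.0432 ± 0.0219 FPKM. After Rgs4 the highest regulators were Rgs7 at 31.5 ± 2.11 FPKM and Rgs11 at 25.4 ± 3.63 FPKM, both of the R7 group that works as a pair with the G protein subunit Gnb5. Rgs1, Rgs18 and Rgs21 were lowest, at 0.108 ± 0.0513 FPKM, 0.0472 ± 0.031 FPKM and 0.00084 ± 0.00664 FPKM. Rgs21 had a count in only 3 of the 95 libraries.

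**Figure D1:**
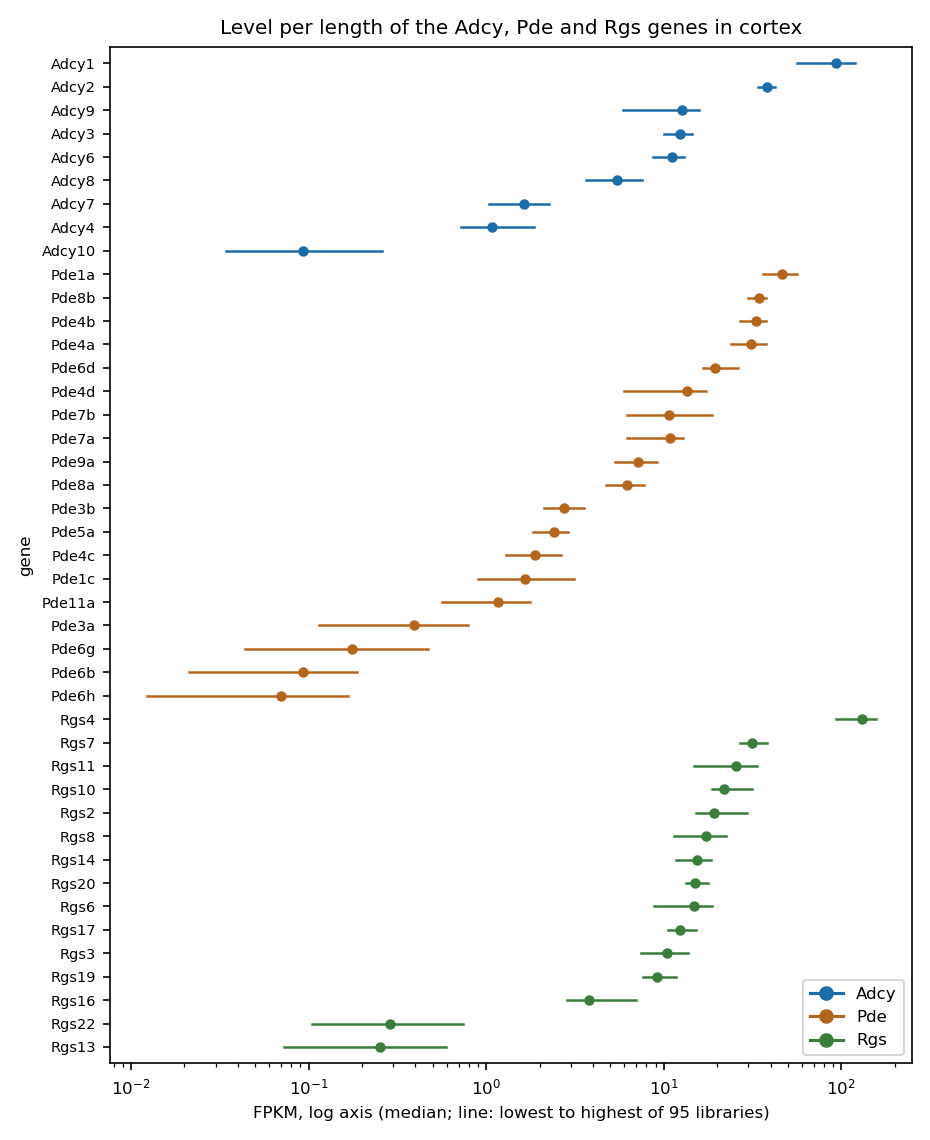
Level per length of the 43 members tested at each age, in FPKM on a log axis, with the median as a point and a line from the lowest to the highest of 95 libraries. Rgs4 (median 131 FPKM) and Adcy1 (median 94 FPKM) stand at the top of their families, while Adcy10 (median 0.0925 FPKM) and Pde6h (median 0.0696 FPKM) stand at the bottom of theirs.

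Promoter sequences were at hand for 33 of the 48 members. Those of Pde7b, Rgs2, Rgs8 and Pde1c are shown because these genes were called in more than 1 comparison of a line with wild type. Rgs4 is added as the regulator higher in Q92, and Pde8a as the member called in Q140 at 10 months. Each run is the 250 bases before the RefSeq start on GRCm38.p6, 5′ to 3′ on the gene's strand, and for Rgs8 and Pde1c the first of 3 starts by coordinate. Capitals mark the letters TGACG or their reverse complement CGTCA, the half-site to which the cyclic AMP responsive factor CREB is known to bind.
Rgs2 (chr1:144004150-144004399, minus strand): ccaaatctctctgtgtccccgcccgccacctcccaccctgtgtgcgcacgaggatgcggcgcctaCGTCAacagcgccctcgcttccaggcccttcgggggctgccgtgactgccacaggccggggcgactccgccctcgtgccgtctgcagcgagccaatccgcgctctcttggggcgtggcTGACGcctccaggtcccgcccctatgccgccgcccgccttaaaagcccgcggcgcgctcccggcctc
Rgs8 (chr1:153652787-153653036, plus strand): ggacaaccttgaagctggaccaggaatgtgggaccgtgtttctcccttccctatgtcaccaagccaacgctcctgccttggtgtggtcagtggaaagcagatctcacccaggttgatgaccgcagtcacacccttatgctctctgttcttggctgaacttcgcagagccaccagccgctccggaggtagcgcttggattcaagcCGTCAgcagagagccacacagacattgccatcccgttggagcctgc
Rgs4 (chr1:169747643-169747892, minus strand): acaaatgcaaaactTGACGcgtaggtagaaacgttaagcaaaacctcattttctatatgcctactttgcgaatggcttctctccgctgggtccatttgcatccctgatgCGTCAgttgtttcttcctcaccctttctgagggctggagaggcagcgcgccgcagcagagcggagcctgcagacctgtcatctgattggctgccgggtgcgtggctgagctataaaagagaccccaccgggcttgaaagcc
Pde7b (chr10:20548329-20548578, minus strand): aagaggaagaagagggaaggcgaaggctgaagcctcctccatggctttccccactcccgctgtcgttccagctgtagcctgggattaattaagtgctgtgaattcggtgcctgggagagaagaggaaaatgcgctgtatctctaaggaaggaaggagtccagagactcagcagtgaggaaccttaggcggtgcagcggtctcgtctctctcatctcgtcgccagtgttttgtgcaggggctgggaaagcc
Pde1c (chr6:56362393-56362642, minus strand): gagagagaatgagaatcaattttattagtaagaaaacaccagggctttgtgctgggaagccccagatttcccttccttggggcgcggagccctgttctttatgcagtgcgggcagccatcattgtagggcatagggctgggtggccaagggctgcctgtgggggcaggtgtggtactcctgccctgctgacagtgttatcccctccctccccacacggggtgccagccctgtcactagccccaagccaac
Pde8a (chr7:81213015-81213264, plus strand): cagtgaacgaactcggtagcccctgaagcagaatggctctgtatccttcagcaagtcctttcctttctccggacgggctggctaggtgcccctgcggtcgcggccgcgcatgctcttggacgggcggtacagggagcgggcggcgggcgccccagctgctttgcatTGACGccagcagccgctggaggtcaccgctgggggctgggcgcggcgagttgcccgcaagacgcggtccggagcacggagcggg
Rgs2 and Rgs4 each held 2 half-sites, Pde8a and the first start of Rgs8 held 1 each, and the Pde7b window held none. The other 2 starts of Rgs8 and all 3 of Pde1c held 0. A half-site on either strand lay in 11 of the 55 member promoters (20.0%), against 5836 of all 32851 promoters (17.77%). Counted by gene over all starts, these shares were 33.3% of 33 members and 19.8% of 27025 genes. The 33 members had 55 starts and all 27025 genes had 32851, so members had more windows per gene for a match. The palindrome TGACGTCA, which contains the half-site on both strands, was in 0 of the 55 member promoters and in 1.546% of all promoters. A match describes these letters only.

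The comparison of each line with wild type asks whether the expanded repeat goes with other levels of these genes. Over the 8 such comparisons 11 members were called at least once, that is, had a Benjamini-Hochberg adjusted p under 0.05 in edgeR's quasi-likelihood test over all genes tested. These were 11 of the 43 members tested, against 12.7% of all 17959 genes tested in any of the 8 comparisons. Pde7b was called in 3 of them and Rgs2, Rgs8 and Pde1c in 2 each. Of the 12 calls at 6 months 2 were rises, and of the 4 calls at 10 months 3 were rises. Each rise, fall or difference is on the log2 scale of the fitted counts and is given ± SE.

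**Figure D2:**
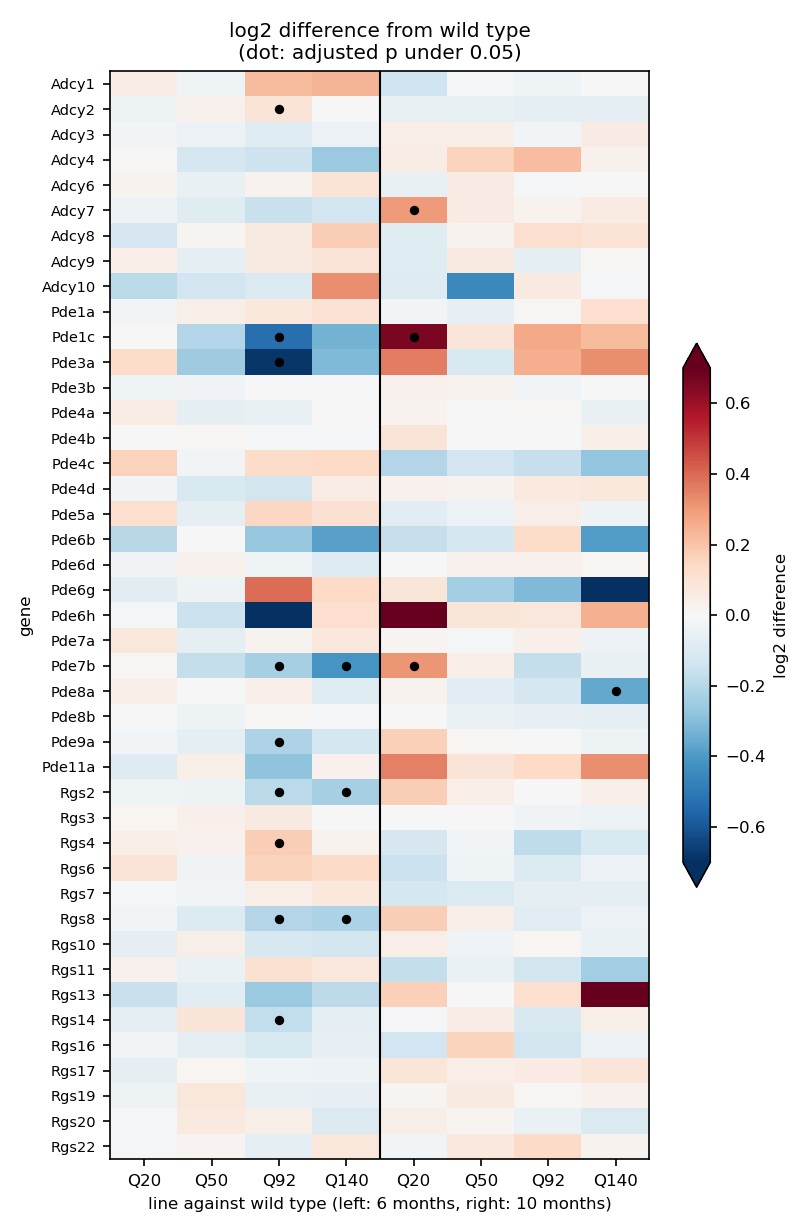
log2 difference of 43 members (rows) between each knock-in line and wild type at 6 months (left 4 columns) and 10 months (right 4 columns), with a dot where the adjusted p was under 0.05. The 12 dots at 6 months lie in the Q92 and Q140 columns, and the 4 dots at 10 months lie in the Q20 and Q140 columns. Colours are cut at 0.7 in both directions, which a few genes of very low count exceed.

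At 6 months the Q92 line had the most calls. Of 43 members, 7 were lower and 2 higher than in wild types, against a background of 7.83% of all genes called (4.53% lower and 3.3% higher). The median log2 difference of the members was -0.03 and that of all genes tested 0.0044. Calls fell in all 3 families, with 1 cyclase, 4 phosphodiesterases and 4 regulators.

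Among the regulators, Rgs8 and Rgs2 of the R4 group and Rgs14 of the R12 group were lower in Q92, whereas Rgs4 was higher. Rgs8, which acts mainly on Gi and Go alpha subunits, had a lowest, median and highest level of 66.0, 87.4 and 94.4 CPM in the 8 Q92 libraries. In the wild types of the Q20 cages these were 96.8, 103 and 109 CPM, and in those of the Q50 cages 85.3, 95.4 and 99.9 CPM. All 8 Q92 libraries lay below the wild-type mean, although the ranges overlapped with the wild types of the Q50 cages. Rgs8 fell by 0.20 ± 0.044 (adjusted p = 0.0016).

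Rgs2, a selective brake on Gq signalling, ranged from 41.7 to 57.7 CPM in Q92 with a median of 44.3 CPM. The wild types ranged from 47.9 to 60.5 CPM (median 52.6 CPM) in the Q20 cages and from 44.7 to 55.5 CPM (median 51.3 CPM) in the Q50 cages. The Q92 library at 57.7 CPM, male 3, is 1 of the 2 with a high mitochondrial share and lay above the wild-type mean, while the other 7 lay below it. The difference in Rgs2 was -0.19 ± 0.047 (adjusted p = 0.0055). Rgs14, a scaffold for G protein and Ras signalling known from hippocampal area CA2, had 30.7, 34.8 and 37.0 CPM in Q92 as lowest, median and highest, against 38.9, 40.2 and 42.7 CPM in the wild types of the Q20 cages and 35.1, 37.0 and 41 CPM in those of the Q50 cages. Every Q92 library was below the wild-type mean, and Rgs14 fell by 0.17 ± 0.040 (adjusted p = 0.0032).

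Rgs4 moved the other way, with 399, 414 and 458 CPM in Q92 as lowest, median and highest. The wild types had 347, 365 and 414 CPM in the Q20 cages and 312, 372 and 425 CPM in the Q50 cages. All 8 Q92 libraries were above the wild-type mean, and Rgs4 rose by 0.17 ± 0.044 (adjusted p = 0.0075). Cortical projection neuron markers were higher in the same comparison (5 of 11 called, list median 0.19), and their part in the Rgs4 result was not tested. In Q140 of the same age Rgs4 was not called, with 352, 381 and 402 CPM and a difference of 0.03 ± 0.044 (adjusted p = 0.87).

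The 4 phosphodiesterases lower in Q92 at 6 months belonged to 3 substrate groups. Pde1c and Pde3a split both cyclic nucleotides, the first under calmodulin and the second under inhibition by cyclic GMP. Pde1c had 6.76, 8.65 and 9.27 CPM in Q92 against 10.5, 13.1 and 16.8 CPM in the wild types of the Q20 cages and 9.15, 10.5 and 15.3 CPM in those of the Q50 cages. The ranges met only at their edges, all 8 Q92 libraries were below the wild-type mean, and Pde1c fell by 0.53 ± 0.10 (adjusted p = 0.0005). Pde3a was near 1 CPM and had 0.49, 1.22 and 1.49 CPM in Q92. Its wild-type levels were 1.28, 1.70 and 2.11 CPM in the Q20 cages and 1.21, 1.69 and 2.80 CPM in the Q50 cages. The groups overlapped, all 8 Q92 libraries were below the wild-type mean, and the fall was 0.68 ± 0.17 (adjusted p = 0.0071).

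Pde9a, which is specific for cyclic GMP and has the highest affinity for it among the phosphodiesterases, had 11.1, 12.3 and 13.3 CPM in Q92. Wild types had 12.9, 14.1 and 14.7 CPM in the Q20 cages and 12.3, 14.4 and 16.1 CPM in the Q50 cages, and the fall was 0.21 ± 0.049 (adjusted p = 0.0025). Pde7b, a cyclic AMP specific enzyme abundant in striatum, had 32.6, 37.8 and 46.7 CPM in Q92 against 41.6, 48.0 and 61.4 CPM and 37.5, 43.5 and 48.0 CPM in the wild types of the Q20 and Q50 cages. Its groups overlapped widely, and the fall was 0.23 ± 0.069 (adjusted p = 0.028). Among the cyclases Adcy2, which G protein beta-gamma subunits stimulate, had 155, 171 and 175 CPM in Q92 and 153, 162 and 167 CPM or 139, 157 and 176 CPM in the wild types. It rose by 0.09 ± 0.028 (adjusted p = 0.041), with 7 of 8 libraries above the wild-type mean.

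Leaving out each library in turn kept 7 of these 9 calls every time. Pde7b lost its call without female Q92 library 2, male Q92 libraries 1, 3 or 4, or male wild-type library 1 of the Q20 cages (adjusted p 0.055 to 0.10), and Adcy2 without any of 12 libraries (0.05 to 0.086). Without the 2 libraries of high mitochondrial share 13 members were called, the added ones being Adcy1 (0.30), Rgs6 (0.24), Pde5a (0.18) and Rgs10 (-0.18). With the striatal marker level as a covariate none of the 9 calls held, and the differences became -0.07 ± 0.073 for Rgs2, -0.09 ± 0.069 for Rgs8, 0.04 ± 0.068 for Rgs4, -0.12 ± 0.065 for Rgs14, -0.02 ± 0.14 for Pde1c, -0.22 ± 0.26 for Pde3a and -0.13 ± 0.078 for Pde9a. Pde7b (0.14 ± 0.086) and Adcy2 (-0.012 ± 0.042) changed sign, and each adjusted p was 1. The marker level of the 8 Q92 libraries, 2.71 to 3.10 as mean log2 CPM, did not overlap that of the wild types, 3.46 to 4.90, so the line and the marker level cannot be told apart well in this fit. Against the wild types of the Q50 cages alone 3 members were called (Pde9a, Pde1c and Pde3a). For these other fits, here and below, the share of all genes called was not counted.

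In the Q140 line at 6 months 3 members were called, all lower, against 3.52% of all genes (2.13% lower). The 3 were Pde7b, Rgs2 and Rgs8, each of which was also lower in Q92 against the same wild types. The median log2 difference was -0.00067 for the members and 0.00084 for all genes tested.

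Pde7b had 31.6, 34.0 and 37.9 CPM as lowest, median and highest of the 8 Q140 libraries. All lay below 41.6 CPM, the lowest wild type of the Q20 cages, and only the edge of the range overlapped the wild types of the Q50 cages, which began at 37.5 CPM. Pde7b fell by 0.41 ± 0.070 (adjusted p = 0.00013). Rgs2 had 41.3, 44.5 and 47.6 CPM, below all wild types of the Q20 cages and overlapping those of the Q50 cages, and fell by 0.23 ± 0.047 (adjusted p = 0.0014). Rgs8 had 81.5, 84.4 and 88.8 CPM, with every library below the wild-type mean of 98.4 CPM, and fell by 0.22 ± 0.045 (adjusted p = 0.0014).

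**Figure D3:**
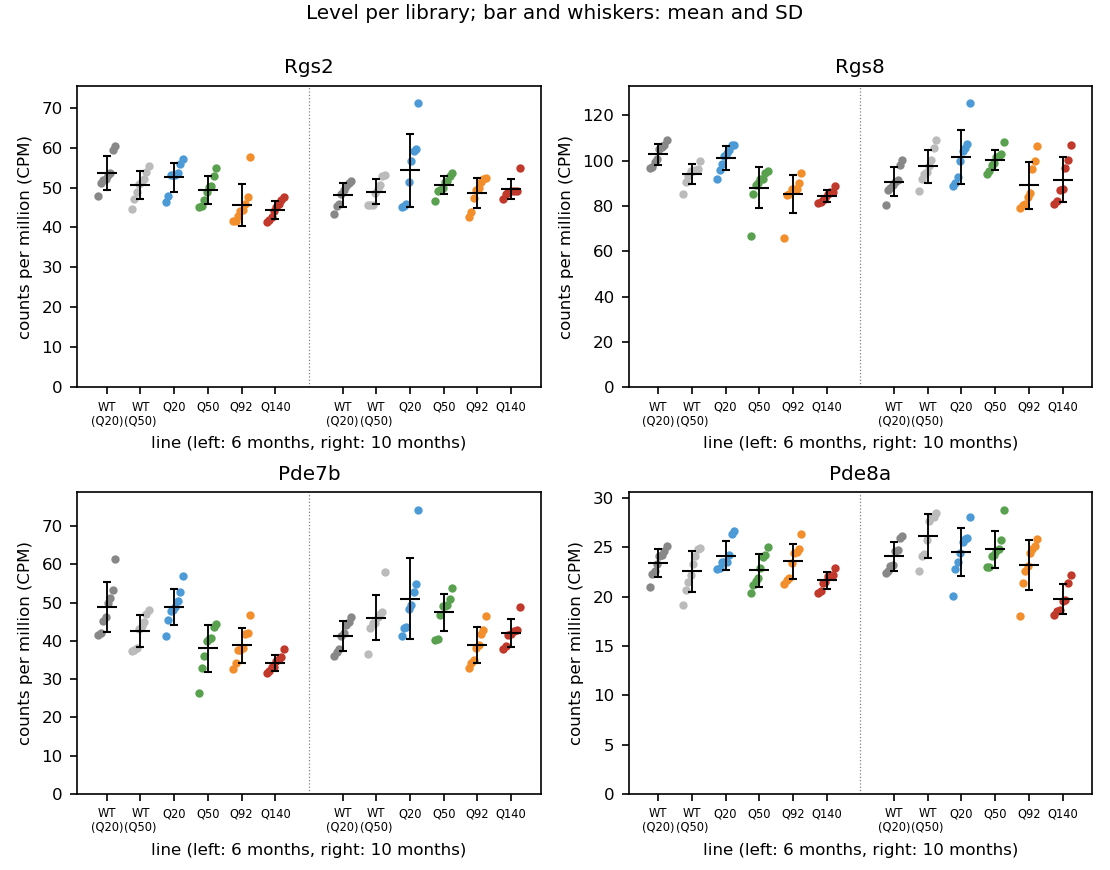
CPM of Rgs2, Rgs8, Pde7b and Pde8a in every library (points sorted by level within a group), with mean and SD, for the wild types of the Q20 and Q50 cages and the 4 knock-in lines at 6 months (left) and 10 months (right). Q140 sits low for Pde7b at 6 months (median 34.0 CPM) and for Pde8a at 10 months (median 19.6 CPM).

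These 3 calls held with each library left out. The count rose to 5 without female wild-type library 2 of the Q20 cages and to 7 without the 2 libraries of high mitochondrial share, with Adcy1 (0.24), Adcy8 (0.17), Adcy6 (0.10) and Pde1c (-0.33) added in the latter. With the striatal marker level as a covariate the differences were -0.08 ± 0.082 for Pde7b (adjusted p = 0.79), -0.12 ± 0.068 for Rgs2 and -0.12 ± 0.065 for Rgs8 (both 0.64). As mean log2 CPM that level was 2.51 to 3.59 in Q140. It was 4.16 to 4.90 and 3.46 to 4.22 in the wild types of the Q20 and Q50 cages. The line and the marker level overlapped little and cannot be told apart well in this fit. Against the wild types of the Q50 cages alone only Pde7b was called (-0.31, adjusted p = 0.028).

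A slope over the 4 knock-in lines asks whether levels follow repeat length. At 6 months 4 members were called, against 1.78% of all genes. Per 100 repeats Pde7b fell by 0.37 ± 0.072 (adjusted p = 0.0024), Rgs2 by 0.21 ± 0.042 (0.0043) and Rgs8 by 0.20 ± 0.048 (0.02). Adcy8, a cyclase that calcium and calmodulin stimulate, rose by 0.25 ± 0.059 (0.018), with medians of 23.8, 28.6, 27.6 and 30.1 CPM from Q20 to Q140. Its Q20 libraries began at 18.7 CPM and its Q140 libraries ended at 33.9 CPM, and neighbouring lines overlapped. The Rgs8 slope lost its call without female Q20 libraries 1 or 2 or male Q20 library 1 (adjusted p 0.051 to 0.055). With the L code as a factor Rgs8 (-0.21) and Adcy8 (0.27) were not called (adjusted p 0.074 and 0.091). None of the 4 slopes was called with the striatal marker level as a covariate: Pde7b -0.09, Rgs2 -0.12, Rgs8 -0.05 and Adcy8 0.21 (adjusted p 0.32 to 0.71).

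The short repeats gave no call at 6 months. In Q20 0 of 43 members were called by edgeR, 0 had an unadjusted p under 0.05, and DESeq2 also called 0, against 0.0169% of all genes. In Q50 edgeR and DESeq2 called 0 members, 1 had an unadjusted p under 0.05, and the background was 0.0226%. Median Pde7b was 48.5 CPM in Q20 and 40.2 CPM in Q50, and the ranges overlapped those of the wild types. Between the 2 wild-type groups of 6 months 0 members were called by edgeR and by DESeq2, 8 had an unadjusted p under 0.05, and 0.0903% of all genes were called.

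At 10 months the Q20 line had 3 calls, all higher than in the wild types of its cages, against 4.35% of all genes (2.56% higher). Median log2 differences were 0.02 for the members and -0.0016 for all genes tested. Pde1c had 10.4, 15.3 and 20.5 CPM in Q20 as lowest, median and highest, against 6.79, 9.47 and 10.7 CPM in the wild types. The highest wild type lay just above the lowest Q20 library, all 8 Q20 libraries were above the wild-type mean, and Pde1c rose by 0.66 ± 0.14 (adjusted p = 0.013). Adcy7, a cyclase known from blood and immune cells as well as brain, had 9.14, 10.6 and 10.9 CPM against 7.69, 8.33 and 9.29 CPM. It rose by 0.30 ± 0.074 (adjusted p = 0.022), with all 8 libraries above the wild-type mean. Pde7b had 41.2, 48.8 and 74.3 CPM against 35.9, 41.7 and 46.4 CPM and rose by 0.31 ± 0.090 (adjusted p = 0.043), with the high value in male library 4.

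Without male Q20 library 4 the count was 0, with Pde1c at 0.57 (adjusted p = 0.051), Adcy7 at 0.30 (0.057) and Pde7b at 0.21 (0.15). It was 1 without male Q20 libraries 1 or 2 or male wild-type library 2 of the Q20 cages, 6 without female Q20 library 3 and 8 without female Q20 library 4. Male Q20 library 4 also had the highest striatal marker level of its group, 5.31 as mean log2 CPM. With that level as a covariate Pde1c was at 0.15 ± 0.11 (adjusted p = 0.72), Adcy7 at 0.22 ± 0.088 (0.67) and Pde7b at -0.0039 ± 0.072 (0.99). With the L code in each sample name as a factor, whose meaning the labels do not give, 0 of the 3 were called (Pde1c 0.64, Adcy7 0.33, Pde7b 0.36; adjusted p 0.06 to 0.084).

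The wild types of the 2 kinds of cage, which share their genotype, differed at 10 months in 2 of 43 members, against 7.03% of all genes. In the Q20 cages Adcy7 was lower by 0.26 ± 0.074 than in the Q50 cages (adjusted p = 0.025; 8.33 against 9.60 CPM as medians). Pde4b, a cyclic AMP phosphodiesterase that rolipram inhibits, was lower by 0.13 ± 0.034 (adjusted p = 0.02), with 111 to 124 CPM against 118 to 136 CPM. The wild types of the Q20 cages are also the reference of the Q20 line, so both comparisons share those 8 libraries. Of 16 striatal markers 14 were lower in the Q20 cages, as were 5 of 10 meningeal fibroblast markers, whose part was not tested. The Adcy7 call was lost without female libraries 1 of either cage group, male library 2 of the Q20 cages or male library 1 of the Q50 cages (adjusted p 0.051 to 0.11). With the striatal marker level as a covariate, Adcy7 was at -0.19 and Pde4b at -0.10 (adjusted p 0.27 and 0.22), and the 1 member called was another, Pde1a (-0.25, adjusted p = 0.018). The L code as a factor also ended both calls (Adcy7 -0.26, Pde4b -0.12; adjusted p 0.067 and 0.079).

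In Q140 at 10 months 1 of 43 members was called, against 1.2% of all genes. This was Pde8a, a cyclic AMP specific phosphodiesterase of high affinity that is insensitive to the common inhibitor IBMX. Its 7 Q140 libraries had 18.1, 19.6 and 22.2 CPM as lowest, median and highest. The wild types had 22.4, 24.0 and 26.1 CPM in the Q20 cages and 22.6, 26.7 and 28.4 CPM in the Q50 cages, so that no Q140 library reached the lowest of 16 wild types. Pde8a fell by 0.36 ± 0.052 (adjusted p = 1.3e-05).

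The markers of oligodendrocytes, the myelin-forming cells, were lower in the same comparison, with 6 of 10 called and none at 0. Their summed level was 3160 to 4090 CPM in Q140, against 4320 to 5140 CPM and 4210 to 5050 CPM in the wild types of the Q20 and Q50 cages, again without overlap. With the oligodendrocyte marker level as a covariate, a fit chosen after seeing the data, Pde8a was at -0.12 ± 0.054 (adjusted p = 1) and no member was called. The striatal marker level as a covariate left it at -0.36 ± 0.052 (adjusted p = 1.3e-05). As the covariate enters, as mean log2 CPM, it was 6.81 to 7.19 in Q140 and 7.17 to 7.42 in the wild types, so the line and the marker level cannot be told apart well in this fit. Of 10 meningeal fibroblast markers 2 were higher (summed level 100 to 194 CPM in Q140, 57.1 to 142 CPM in wild types), and their part was not tested. Leaving out any 1 of the 47 libraries kept the Pde8a difference between -0.38 and -0.33 (adjusted p 2e-06 to 0.00016), and without male Q140 library 3 the count of called members was 2. Against the wild types of the Q20 cages alone it was 5.

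**Figure D4:**
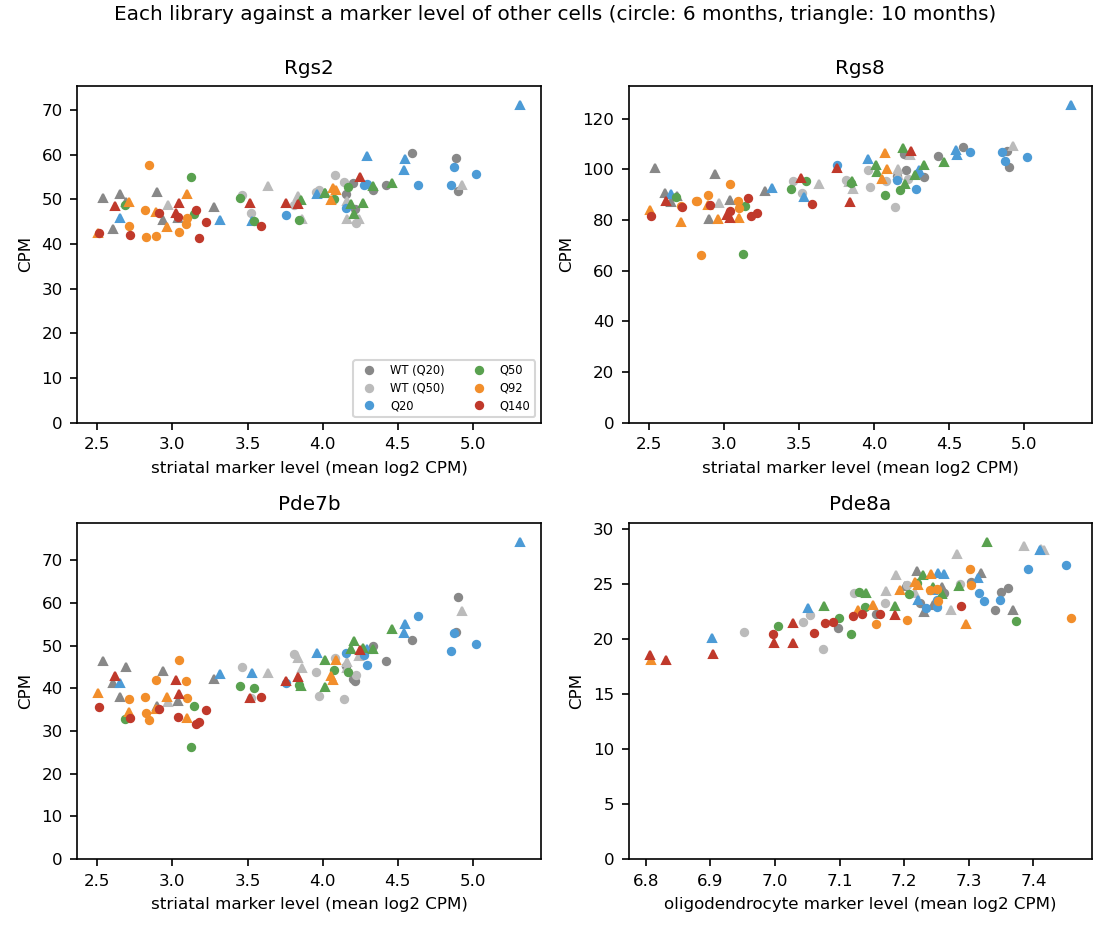
CPM of Rgs2, Rgs8 and Pde7b against the mean log2 CPM of 16 striatal projection neuron markers, and of Pde8a against that of 10 oligodendrocyte markers, in each of 95 libraries, with circles for 6 months and triangles for 10 months, coloured by line. The Q92 libraries of 6 months lie between 2.71 and 3.10 on the striatal axis, and the Q140 libraries of 10 months lie between 6.81 and 7.19 on the oligodendrocyte axis, where the wild types of that age lie between 7.17 and 7.42.

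Pde8a in the other lines of 10 months was not called: it was at 0.02 ± 0.056 in Q20, -0.07 ± 0.055 in Q50 and -0.12 ± 0.048 in Q92 (adjusted p 0.86, 1 and 0.27). In Q92 its libraries spread from 18.1 to 25.9 CPM and so covered both the Q140 and most of the wild-type range. The slope over the knock-in lines called 2 members at 10 months, against 0.891% of all genes. Pde8a fell by 0.27 ± 0.052 per 100 repeats (adjusted p = 0.0073), and by 0.29 with the striatal marker level as a covariate (0.0068). With the L code as a factor this slope was -0.23 (adjusted p = 0.14). Pde1a rose by 0.15 ± 0.039 per 100 repeats (adjusted p = 0.048), with 152 to 202 CPM in Q20 and 192 to 221 CPM in Q140. The Pde1a slope was 0.12 ± 0.043 with the striatal marker level as a covariate (adjusted p = 0.15) and 0.14 ± 0.049 with the L code as a factor (0.3), neither of them called. Without a filter on low counts it was also not called (adjusted p = 0.058). The Pde1a call was lost without any of 22 knock-in libraries (adjusted p up to 0.12). With the oligodendrocyte marker level as a covariate the slopes were -0.09 ± 0.039 for Pde8a and 0.12 ± 0.049 for Pde1a (adjusted p 0.36 and 0.29), so that neither was called.

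Q50 and Q92 had no called member at 10 months. In Q50 edgeR and DESeq2 called 0, 2 had an unadjusted p under 0.05, and 0.0561% of all genes were called. In Q92 both tools called 0, 7 had an unadjusted p under 0.05, and the background was 0.853%. The smallest adjusted p in Q92 was that of Rgs4, which stood at -0.18 ± 0.063 (adjusted p = 0.18) after being higher at 6 months. Rgs8 was at -0.08 ± 0.054, and Rgs2 had a mean of 48.6 CPM in both Q92 and the wild types. The striatal covariate gave 1 call in Q92, Pde1c (0.28 ± 0.075, adjusted p = 0.037).

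Whether a line's difference from wild type itself differed between 6 and 10 months was tested as an interaction. For Q92 4 members were called, against 9.63% of all genes. The difference of Rgs4 moved by -0.34 ± 0.077 (adjusted p = 0.0016) and that of Adcy2 by -0.15 ± 0.043 (0.013), both of which were called higher at 6 months. Those of Pde1c and Pde3a, called lower at 6 months, moved by 0.79 ± 0.16 (0.00062) and 0.94 ± 0.24 (0.0054). None of the 4 was called at 10 months itself, where Pde1c stood at 0.26 ± 0.12 and Pde3a at 0.25 ± 0.16. Median Pde1c in Q92 was 8.65 CPM at 6 months and 12.4 CPM at 10 months, while it went from 13.1 to 9.47 CPM in the wild types of the Q20 cages and from 10.5 to 12.3 CPM in those of the Q50 cages. Olfactory bulb and meningeal fibroblast markers were called higher in the same interaction (4 of 4 and 6 of 10) and oligodendrocyte markers lower (6 of 10), and their part was not tested. All 4 held with each library left out, and none was called with the striatal marker level as a covariate (Rgs4 -0.23, Adcy2 -0.07, Pde1c 0.29, Pde3a 0.45; adjusted p 0.29 to 0.62). Without the 2 libraries of high mitochondrial share 8 members were called, and without female Q92 library 3 of 10 months, male Q92 library 3 of 6 months or male Q92 library 4 of 10 months the counts were 8, 7 and 7.

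For Q140 4 members were called in the interaction, against 1.79% of all genes. The difference of Rgs2 moved by 0.27 ± 0.073 (adjusted p = 0.035), from lower at 6 months to 0.03 ± 0.055 at 10 months. Pde8a moved by -0.27 ± 0.066 (0.019), from -0.09 ± 0.042 at 6 months (adjusted p = 0.34). Pde4c, another cyclic AMP phosphodiesterase, moved by -0.41 ± 0.11 (0.04), and its Q140 median went from 6.49 to 5.02 CPM. Rgs11 moved by -0.31 ± 0.088 (0.042), with a Q140 median of 54.1 CPM at 6 months and 40.8 CPM at 10 months, against 50.8 and 48.4 CPM in the wild types of the Q20 cages and 53.1 and 46.1 CPM in those of the Q50 cages.

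The count of Q140 age differences was 0 without female Q140 library 4 of 10 months or male Q140 library 2 of 6 months, and with any other single library left out it lay between 1 and 6. The call was lost without any of 7 libraries for Rgs2, 21 for Rgs11, 13 for Pde4c and 2 for Pde8a, of 95 in all. Fitted with the striatal marker level, the 4 values were 0.11, -0.21, -0.35 and -0.25 for Rgs2, Rgs11, Pde4c and Pde8a (adjusted p 0.24 to 0.87). The L code as a factor ended all 4 calls (Rgs2 0.26, Rgs11 -0.25, Pde4c -0.31, Pde8a -0.25; adjusted p 0.085 to 0.26). Without a filter on low counts only Pde8a was called (adjusted p = 0.028; the others 0.054 to 0.059). Oligodendrocyte markers moved in the same interaction, with 4 of 10 called lower, and their part was not tested there. The Q20 interaction called 0 members in edgeR and 1 in DESeq2 (Pde1c), with 12 at an unadjusted p under 0.05 and 0.693% of all genes called. It called 1 or 2 members without any of 6 libraries (female Q20 libraries 1, 3 or 4 of 10 months, or at 6 months female Q50 library 4, male Q50 library 2 or female wild-type library 2 of the Q20 cages). The Q50 interaction called 0 members in both tools, 0 had an unadjusted p under 0.05, and 0% of all genes were called.

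Age itself was compared in the 32 wild-type libraries. The leading numbers of the sample names formed separate runs at 6 and at 10 months, and the labels do not give their meaning. Age and that numbering cannot be told apart. Of 44 members 10 were higher and 4 lower at 10 than at 6 months, against 23.4% of all genes (10.4% higher and 13% lower). The share of members called was thus 14 of 44, and the median log2 difference of all 44 members tested was -0.01. The contrast was taken at the level of the female libraries, since the fit has a sex term in each age.

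Among the regulators Rgs7 and Rgs6 of the R7 group and Rgs17 of the RZ group, which acts on Gz and Gi, were higher. Rgs7 was at 47.4 ± 3.28 CPM (SD, n = 16) at 10 months and 43.2 ± 3.10 CPM (n = 16) at 6 months, a rise of 0.15 ± 0.036 (adjusted p = 0.0013). Its medians were 47.5 and 45.9 CPM in the 2 cage groups at 10 months, above the 42.7 and 43.0 CPM at 6 months, with overlapping ranges. Rgs6 rose by 0.20 ± 0.075 and Rgs17 by 0.10 ± 0.039. Rgs14 was the lower one, at 33.8 ± 3.21 CPM against 38.9 ± 2.15 CPM, and fell by 0.22 ± 0.050 (adjusted p = 0.00051), with 15 of 16 libraries below the 6-month mean.

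Among the cyclases Adcy1 (1221 ± 174 against 1055 ± 131 CPM) and Adcy2 were higher, by 0.22 ± 0.074 and 0.09 ± 0.029. In the wild types of the Q20 cages mean Adcy1 went from 1060 to 1300 CPM between the ages. In those of the Q50 cages its mean went from 1060 to 1130 CPM and its median from 1140 to 1130 CPM. Adcy3, the calcium-regulated cyclase of neuronal cilia, and Adcy7 were lower, by 0.12 ± 0.035 and 0.17 ± 0.059. Mean Adcy7 went from 10.6 to 8.4 CPM in the Q20 cages and from 10 to 10.1 CPM in the Q50 cages. Among the phosphodiesterases Pde5a, which is specific for cyclic GMP and the target of sildenafil, was at 17.1 ± 1.67 CPM against 15 ± 1.43 CPM, and 15 of 16 libraries lay above the 6-month mean. It rose by 0.23 ± 0.054 (adjusted p = 0.0011). Pde1a rose by 0.18 ± 0.044, Pde8a by 0.16 ± 0.043, Pde3b by 0.10 ± 0.035 and Pde4b by 0.08 ± 0.029. Mean Pde4b went from 124 to 118 CPM in the Q20 cages and from 115 to 129 CPM in the Q50 cages. For Pde3b these were 15.5 to 16.8 CPM and 15.6 to 15.4 CPM, so neither gene rose in both cage groups. Pde4a was lower, by 0.11 ± 0.042.

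**Figure D5:**
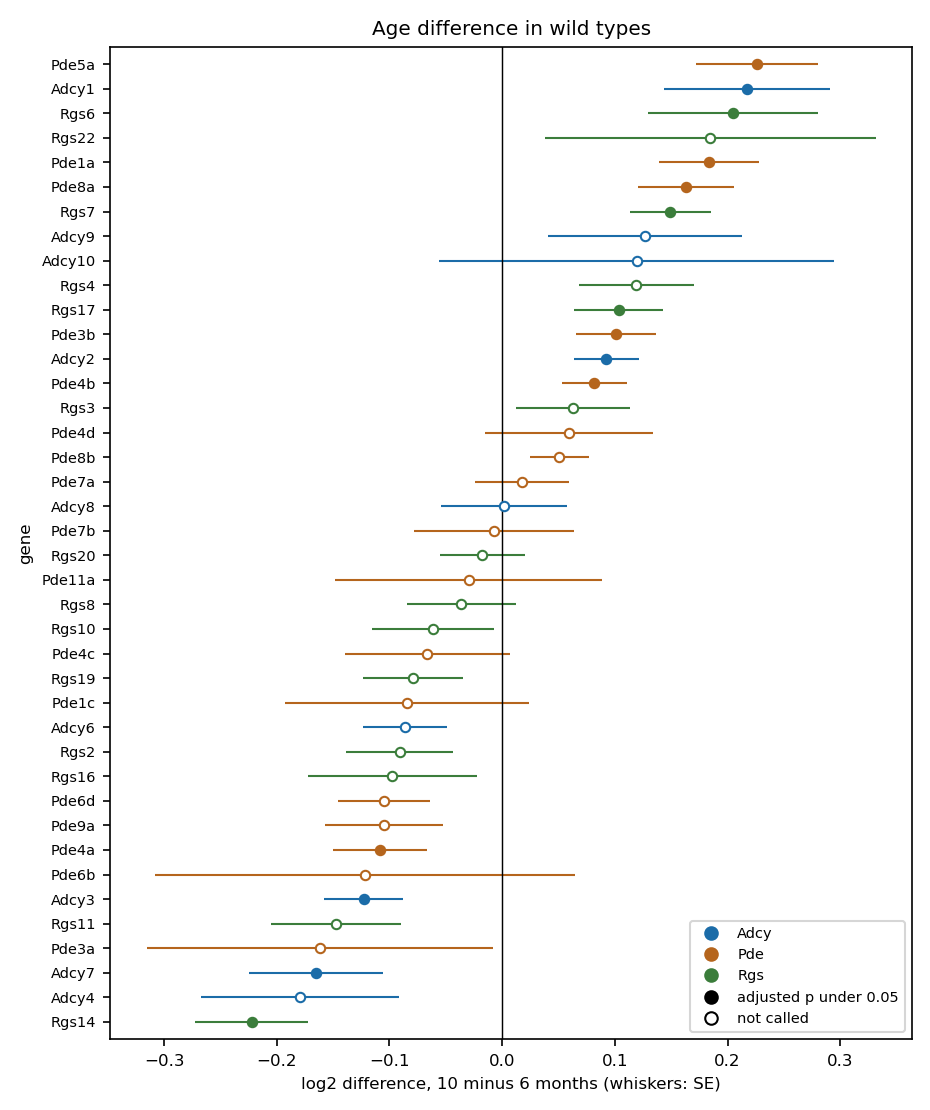
log2 difference between 10 and 6 months in wild types (horizontal, ± SE) for 40 members, filled where the adjusted p was under 0.05 and coloured by family; 4 members with an SE of 0.2 or more are not drawn. Pde5a (0.23), Adcy1 (0.22) and Rgs6 (0.20) lie to the right, and Rgs14 (-0.22) lies left of zero.

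The count of calls was 9 without female wild-type library 1 of the Q50 cages at 6 months. The Pde4a call was lost without any of 40 of 95 libraries and the Rgs17 call without any of 21, whereas Rgs7, Adcy3, Rgs14, Adcy2, Pde1a, Pde5a and Pde8a were called each time. Striatal markers were also lower at 10 months, with 13 of 16 called, while 4 of 10 oligodendrocyte and 4 of 8 choroid plexus markers were higher; the part of the latter lists was not tested. With the striatal marker level as a covariate Pde8a (0.15), Rgs17 (0.15), Pde4b (0.11) and Rgs14 (-0.16) remained called, and the other 10 did not. In that fit 5 further members were called, Pde7b (0.21), Rgs22 (0.45), Pde1c (0.25), Rgs11 (-0.23) and Adcy6 (-0.12). Averaged over the sexes, Pde4b, Pde3b and Pde4a were not called (0.05, 0.06 and -0.05), and Pde6d was newly called (-0.12, adjusted p = 0.0085). With the L code as a factor the count stayed at 14, of which 11 were kept. New in that fit were Rgs11 (-0.17), Pde6h (-0.65) and Rgs4 (0.14).

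The other genes of the pathway were taken from lists of G protein subunits, protein kinase A subunits, cyclic nucleotide targets and CREB factors. In Q92 at 6 months 1 of 13 G protein alpha subunits was called, Gnal, the stimulatory subunit of striatum and olfactory neurons (-0.40 ± 0.055). Of 14 beta and gamma subunits tested 3 were lower, Gng7 (-0.81 ± 0.10), which pairs with Gnal in striatum, Gng4 (-0.44 ± 0.11) and Gnb5 (-0.11 ± 0.035), the partner of the R7 regulators. The R7 members Rgs6, Rgs7 and Rgs11 had no call there. Of 9 protein kinase A genes the regulatory subunits Prkar2b (-0.12 ± 0.036) and Prkar1b (0.13 ± 0.032) were called in opposite directions. Of 10 genes of cyclic GMP synthesis and response Nos1 (-0.43 ± 0.096) and the guanylyl cyclase subunit Gucy1a2 (-0.46 ± 0.14) were lower. Of the 7 tested Epac and cyclic nucleotide gated channel genes 3 were lower, among them the pacemaker channel Hcn4 (-0.70 ± 0.16), and Rapgef4, an Epac that cyclic AMP activates, was higher (0.17 ± 0.048). Of 7 CREB family genes only Atf1 was called (0.18 ± 0.042).

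In Q140 at 6 months Gnal (-0.37 ± 0.055), Gng7 (-0.65 ± 0.10), Gnb5 (-0.15 ± 0.035) and Prkar2b (-0.18 ± 0.036) were lower, and no other gene of these lists was called. In Q20 at 10 months Gnal (0.41 ± 0.088), Gng7 (0.79 ± 0.18) and Prkar2b (0.20 ± 0.061) were higher and Prkar1b was lower (-0.12 ± 0.037). The wild types of the Q20 cages, the reference here, were also called against those of the Q50 cages. In them Gnal (-0.33 ± 0.088), Gng7 (-0.63 ± 0.17) and Prkar2b (-0.19 ± 0.061) were lower. The channel genes Cngb1 (-1.75 ± 0.48) and Cnga3 (-2.58 ± 0.82) were also lower there, and Crtc1 of the CREB list was higher (0.15 ± 0.040). In Q140 at 10 months, where Pde8a was low, the catalytic subunit Prkacb was the only call (0.11 ± 0.028, adjusted p = 0.032). With the striatal marker level as a covariate 0 of the genes named for Q92 and Q140 at 6 months and for Q20 at 10 months were called, for example Gng7 (-0.03, 0.04 and 0.01) and Gnal (-0.09, -0.09 and 0.07). In the fits of 6 months the line and the marker level cannot be told apart well, as given above. In Q92 at 10 months Gng4 (0.46 ± 0.11) and the natriuretic peptide receptor Npr1, a membrane guanylyl cyclase (0.56 ± 0.13), were higher. These and Prkacb were also called with that covariate (Gng4 0.45, Npr1 0.57, Prkacb 0.11). Genes of these lists were also called in the slope at 6 months, the age comparison and the interactions, and are not named here.

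The 6 family genes that the rule left out include 4 known as striatal genes, with the following values. In Q92 at 6 months Rgs9 stood at -1.57 ± 0.22, Pde10a at -0.77 ± 0.16, Adcy5 at -0.56 ± 0.081 and Pde1b at -0.49 ± 0.070. In Q140 at 6 months they were also called, at -1.46 ± 0.22, -0.98 ± 0.16, -0.48 ± 0.081 and -0.43 ± 0.070. The slope at 6 months called all 4 lower too, and that at 10 months called Pde10a (-0.72 ± 0.18 per 100 repeats). In Q20 at 10 months the same genes stood at 1.74 ± 0.33, 1.11 ± 0.21, 0.58 ± 0.13 and 0.48 ± 0.12. The reference of that comparison, the wild types of the Q20 cages, was itself called lower than the wild types of the Q50 cages. There the genes stood at -1.50 ± 0.33, -0.81 ± 0.21, -0.43 ± 0.12 and -0.44 ± 0.12. With the striatal covariate 0 of these were called, and Rgs9 stood at -0.02 in Q92 and 0.16 in Q20. As the 4 are themselves known as striatal genes, this fit cannot tell their differences apart from that of the marker level. In Q140 at 10 months, the comparison with the Pde8a call, 0 of the 6 were called.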

How the data were processed

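Messenger RNA was sequenced from cortex. The authors deposited estimated counts for each gene (67% of the nonzero values are whole) and FPKM values, which scale fragments to gene length and depth. CASAVA 1.8.2 is named in the submitters' processing notes. Aligner, counting tool, build, annotation and strand setting were not given in the sources used here, so genes that overlap others are uncertain. Of 39179 identifiers 37607 were paired with a symbol.

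Estimated counts were rounded to whole numbers. The test was that of edgeR 4.0.16 (R 4.3.3): filterByExpr on the groups of line and sex (minimum count 10, minimum total 15), TMM scaling and the quasi-likelihood test, with sex as a covariate and all libraries of an age in 1 fit. The slope used the knock-in lines alone. The fit of both ages had a sex term for each age. P-values were adjusted over all genes tested (threshold 0.05). CPM used TMM-scaled depths; marker levels are means of log2 CPM with a prior count of 1. The scripts were tested on simulated data.

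Named genes are called members of at least 1 CPM (up to 8 rises and 8 falls per comparison), the 3 highest and lowest per family in FPKM, and up to 3 called genes with the smallest p per pathway list. The members and lists were chosen with earlier results of these data known. Alternatives were DESeq2 1.42.0 (size factors or Wald test), no filter, the replicate number as a block, the L code in each sample name as a factor, the striatal marker level as a covariate, either wild-type group alone, and libraries left out. Sample names with no D part after the L code were put in a common level of that factor. In the fit of both ages, equal L codes shared a level across the ages. The age difference averaged over the sexes and the oligodendrocyte marker level as a covariate were chosen after seeing the data.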

Additional observations from a re-analysis of the deposited data

Results flagged for a closer look

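For the 11 members called in a line comparison, each of the 12 groups of line and age was searched for a library far from the others (Dixon's gap test), which makes 132 searches in which the same libraries recur. It marked 13, and chance alone marks about 1 in 20. Male Q92 library 3 of 6 months held 4 of them: Adcy2 at 155 CPM (others 167 to 175 CPM), Rgs2 at 57.7 CPM (41.7 to 47.6 CPM), Rgs4 at 458 CPM (399 to 423 CPM) and Rgs8 at 66.0 CPM (84.9 to 94.4 CPM). Female Q50 library 4 of 6 months held 2, Adcy7 at 6.32 CPM (9.07 to 10.7 CPM) and Rgs8 at 66.7 CPM (85.5 to 95.4 CPM). These are the 2 libraries with the highest mitochondrial shares, 13.6% and 14.7%.

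The other marked libraries were spread over groups. Pde1c was low at 6.79 CPM in male wild-type library 2 of the Q20 cages at 10 months (others 9.11 to 10.7 CPM) and high at 15.3 CPM in female wild-type library 1 of the Q50 cages at 6 months (9.15 to 11.6 CPM). Pde7b was at 74.3 CPM in male Q20 library 4 of 10 months (41.2 to 54.9 CPM), Pde8a at 28.8 CPM in female Q50 library 2 of 10 months (23.0 to 25.8 CPM), and Rgs2 at 55.0 CPM in female Q140 library 4 of 10 months (47.0 to 49.2 CPM). Rgs14 was at 30.7 CPM in male Q92 library 4 of 6 months (34.1 to 37.0 CPM) and at 42.7 CPM in male wild-type library 2 of the Q20 cages at 6 months (38.9 to 40.6 CPM).

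A line's difference from wild type was not the same at both ages for 8 member and line pairs, by the interaction test of edgeR. These were 4 of 44 members in Q92, against 9.63% of all genes, and 4 of 44 in Q140, against 1.79%. In Q92 the change from 6 to 10 months was -0.34 for Rgs4, -0.15 for Adcy2, 0.79 for Pde1c and 0.94 for Pde3a, on the log2 scale. In Q140 it was 0.27 for Rgs2, -0.31 for Rgs11, -0.27 for Pde8a and -0.41 for Pde4c.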

How the results depend on the processing

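The 46 named differences kept direction and call in 3047 of 3234 fits with a library left out, in 46 of 46 with DESeq2's Wald test, in 44 with its size factors, in 36 without a filter and in 29 with the L code as a factor. With the striatal marker level as a covariate 6 kept their call, 37 lost it, and 3 changed sign: Pde7b in Q92 at 6 months (0.14) and in Q20 at 10 months (-0.0039), and Adcy2 in Q92 at 6 months (-0.012).

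Counts of called members moved by more than 1.5 times as follows, the main count first. With the striatal covariate: Q92 at 6 months 9 to 0, Q140 at 6 months 3 to 0, slope at 6 months 4 to 0, Q20 at 10 months 3 to 0, Q92 at 10 months 0 to 1 (Pde1c, 0.28), wild types at 10 months 2 to 1 (another member, Pde1a), slope at 10 months 2 to 1, age 14 to 9 (4 kept and 5 new), and the age differences in Q92 and Q140 4 to 0 each. With the oligodendrocyte covariate: Q140 at 10 months 1 to 0 and slope at 10 months 2 to 0. With the L code: slope at 6 months 4 to 2, Q20 at 10 months 3 to 0, wild types at 10 months 2 to 0, slope at 10 months 2 to 0 and the age difference in Q140 4 to 0. Against the wild types of the Q20 cages alone: Q140 at 6 months 3 to 5, Q92 at 10 months 0 to 1 and Q140 at 10 months 1 to 5. Against those of the Q50 cages alone: Q92 at 6 months 9 to 3 and Q140 at 6 months 3 to 1. Without the 2 libraries of high mitochondrial share: Q140 and slope at 6 months 7 each, and the age differences in Q20 0 to 2 and in Q92 4 to 8. DESeq2's size factors gave 1 for the slope at 10 months, its Wald test 4 for that slope and 1 for the age difference in Q20, and no filter gave 1 for that slope and 1 for the age difference in Q140. The cause was not tested. The share of all genes called under these settings was not counted, so a change over all genes cannot be told apart from one of the members.

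With the replicate number as a replicate block the slope at 10 months had 1 call, and the other 16 counts were within 1.5 times of the main ones. Of the 46 named calls it ended Pde1a in the slope at 10 months (adjusted p = 0.076) and Pde4a in the age comparison (0.052). Of same-numbered pairs, 36 of 264 at 6 months and 37 of 253 at 10 months correlated above 0.1 (mean 0.0018 and -0.00077). The mean of different-numbered pairs was -0.00025 and 0.00024, and their share above 0.1 was not counted. On average the numbers did not pair the libraries, and a pairing within some groups was not tested.

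With 1 library left out the counts ranged from 7 to 12 for Q92 and 3 to 5 for Q140 and for the slope at 6 months. At 10 months they ranged from 0 to 8 for Q20, 1 to 2 for Q140, and 1 to 3 for the wild types and the slope. They ranged from 9 to 17 for age, and for the age differences from 0 to 2 in Q20, 4 to 8 in Q92 and 0 to 6 in Q140. The counts of 0 for Q20, Q50 and the wild types at 6 months, for Q50 and Q92 at 10 months and for the age difference in Q50 stayed at 0 in each of these fits. Depth limits Pde6a, Rgs1, Rgs18 and Rgs21, which were too low to test.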
